A study of Mus musculus with 7 samples.

Results

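Transcript levels of 10 immediate early genes were examined in mouse dorsal root ganglia (DRG), which hold the cell bodies of sensory neurons. The genes were Fos, Fosb, Fosl2, Junb, Jund, Egr1, Egr2, Ier2, Nr4a1 and Arc. They were taken by symbol from a table of 54309 genes in TPM, a transcript abundance scaled for transcript length and with the same total in every library. All 10 were present and all 10 had a mean of at least 1 TPM over the libraries, as did 14800 genes in all, which were the genes tested. The mice were male C57bl/6 animals of 6 to 8 weeks, and the labels set the groups apart by clock time. Injury of the sciatic nerve took place at ZT20 or ZT8 (ZT, Zeitgeber time, counts hours from lights on), and ganglia L4 to L6 were collected 72 h later. As 72 h is a whole number of days, collection fell at the same nominal clock time as injury. The clock time of injury and that of collection therefore cannot be told apart. The ZT20 group had 4 libraries and the ZT8 group 3. In both groups the ganglia were digested with Dispase II, Collagenase Type II and papain, and a fraction enriched for neurons was collected from an albumin gradient before RNA was prepared. Ganglia that were uninjured or not dissociated were not analysed here, so the part of injury or of dissociation in these levels was not tested. The labels used here do not say how many animals a library holds, so the p-values measure the spread between libraries.

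Immediate early genes are transcribed within minutes of a stimulus, without new protein synthesis, by factors already present in the cell. Serum response factor with its ternary complex partners, acting at CArG boxes, and CREB, acting at cAMP response elements (CRE), are the best known of these factors. Most of the transcripts are short-lived, so their level follows recent signalling. Fos and Jun proteins pair as the AP-1 transcription factor, and Egr, Nr4a and Ier2 proteins carry the response on to later genes. Warm enzymatic digestion of tissue is known to induce many of them, and depolarization and nerve injury do so in sensory neurons.

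Libraries differed before any early gene was considered. ZT8 replicate 2 had 18297 genes above 0 TPM, the other libraries 22541 to 25238. All libraries are labelled male, but in ZT20 replicates 3 and 4 the Y-linked genes Ddx3y, Eif2s3y and Uty had 0 TPM, Kdm5d had 0.0162 and 0.00868 TPM, and Xist was at 2.21 and 2.30 TPM. ZT20 replicate 2 held both Ddx3y (11.7 TPM) and Xist (1.08 TPM). Library identifiers were numbers at ZT20 and letters at ZT8, so whatever those schemes stand for cannot be told apart from clock time. Of 14800 tested genes, 2433 (16.4%) passed an adjusted p-value of 0.05 between ZT20 and ZT8 (limma with Benjamini-Hochberg adjustment), and 33.2% had ranges that did not overlap between the groups. Over all tested genes the median of the log2 differences, ZT20 minus ZT8, was 0.23. That shift depends on the scaling: it was 0.034 under median-ratio scaling, 0.0046 under quantile normalization and −0.0027 after correction for transcript length. The labelled cells were checked by their markers: the 11 neuronal markers were above 0 in every library, and their sum was 18990 to 23690 TPM at ZT20 and 14950 to 21810 TPM at ZT8.

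The promoters of 5 members are shown because CREB and serum response factor act on early genes close to the start site. A promoter entry was found by symbol for 7 of the 10 members, Fos, Fosb, Fosl2, Junb, Jund, Egr2 and Nr4a1, and none for Egr1, Ier2 and Arc. Each sequence is the 250 bases before a RefSeq start site (GRCm38.p6), read 5′ to 3′ on the gene's own strand. Capitals mark the CRE core, TGACG, or its reverse complement CGTCA, and the CArG box. The windows are chr12:85473640-85473889 (plus strand) for Fos, chr8:84978749-84978998 (minus strand) for Junb, chr15:101266596-101266845 (plus strand) for Nr4a1, chr10:67537619-67537868 (plus strand) for Egr2 and chr5:32136222-32136471 (plus strand) for Fosl2.
Fos: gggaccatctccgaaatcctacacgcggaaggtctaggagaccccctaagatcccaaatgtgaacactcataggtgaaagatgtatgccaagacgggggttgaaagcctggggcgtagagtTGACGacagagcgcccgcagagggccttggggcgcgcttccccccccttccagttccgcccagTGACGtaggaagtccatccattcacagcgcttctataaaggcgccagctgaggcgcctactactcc
Junb: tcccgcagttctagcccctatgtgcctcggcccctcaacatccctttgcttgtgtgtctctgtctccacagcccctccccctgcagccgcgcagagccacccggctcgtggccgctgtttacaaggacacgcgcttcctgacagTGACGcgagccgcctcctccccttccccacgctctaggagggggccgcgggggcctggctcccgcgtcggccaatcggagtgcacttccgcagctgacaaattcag
Nr4a1: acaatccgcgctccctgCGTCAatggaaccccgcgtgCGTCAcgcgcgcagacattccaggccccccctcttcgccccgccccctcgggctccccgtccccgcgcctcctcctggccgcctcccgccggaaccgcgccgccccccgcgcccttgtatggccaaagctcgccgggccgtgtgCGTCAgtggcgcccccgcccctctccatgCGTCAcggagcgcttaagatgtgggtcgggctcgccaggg
Egr2: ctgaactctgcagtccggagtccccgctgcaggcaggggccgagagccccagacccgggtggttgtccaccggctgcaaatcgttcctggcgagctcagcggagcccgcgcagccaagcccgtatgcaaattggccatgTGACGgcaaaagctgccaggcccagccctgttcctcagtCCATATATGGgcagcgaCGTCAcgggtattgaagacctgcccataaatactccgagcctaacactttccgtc
Fosl2: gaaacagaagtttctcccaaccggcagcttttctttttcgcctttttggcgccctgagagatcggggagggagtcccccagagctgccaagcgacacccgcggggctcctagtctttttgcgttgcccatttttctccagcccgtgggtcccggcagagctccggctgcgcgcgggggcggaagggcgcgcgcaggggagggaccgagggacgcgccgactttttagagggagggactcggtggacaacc
The CRE core was found in 5 of the 7 members with an entry (Fos, Fosb, Junb, Egr2 and Nr4a1), searching both strands, and in 19.8% of 27025 genes with such a window. Fos held 2 matches, the nearer one 66 to 62 bases before the start site, and Nr4a1 held 4. A CArG box was found in Egr2 among the 7 members, and in 1.62% of all genes. The Egr2 entry shown is 1 of 5 start sites listed for that gene; its CArG box lies 72 to 63 bases before the start. The full CRE (TGACGTCA, which contains the CRE core), the AP-1 site (TGANTCA) and the EGR site (GCGTGGGCG) had 0 matches in the 7 members, and were in 1.77%, 7.82% and 0.622% of all genes. The E-box CACGTG was found only in another Egr2 window, and in 6.86% of all genes. These matches are descriptions of letters in a window, and a site outside it would not be seen.

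The early genes ranged from 2.44 to 375 TPM in mean level, with Junb at the top. By mean TPM over the 7 libraries Junb (375 TPM), Fos (170.3 TPM) and Ier2 (113 TPM) came first, then Nr4a1 (87.3 TPM) and Egr1 (57.0 TPM). Lower levels were found for Egr2 (16.3 TPM), Jund (16.1 TPM), Arc (13.3 TPM), Fosl2 (3.43 TPM) and Fosb (2.44 TPM). Among tested genes, Junb lay at the 96.7th percentile of mean level, Fos at the 92.1st and Fosb at the 16.4th. The order Junb, Fos, Ier2 held in 7 of 7 libraries, with Junb 1.79 to 2.62 times Fos within a library and Fos 1.33 to 1.68 times Ier2. Ier2 was above Nr4a1 in 7 of 7 libraries, but by as little as 1.06 times, and Nr4a1 was above Egr1 in 6 of 7. Egr2 was above Arc in 7 of 7 libraries. Jund had no fixed place beside them, with Egr2 above Jund in 2 of 7 libraries and Jund above Arc in 5 of 7. Fosl2 was above Fosb in 6 of 7 libraries, and the ranges of this pair overlapped.

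**Figure D1:**
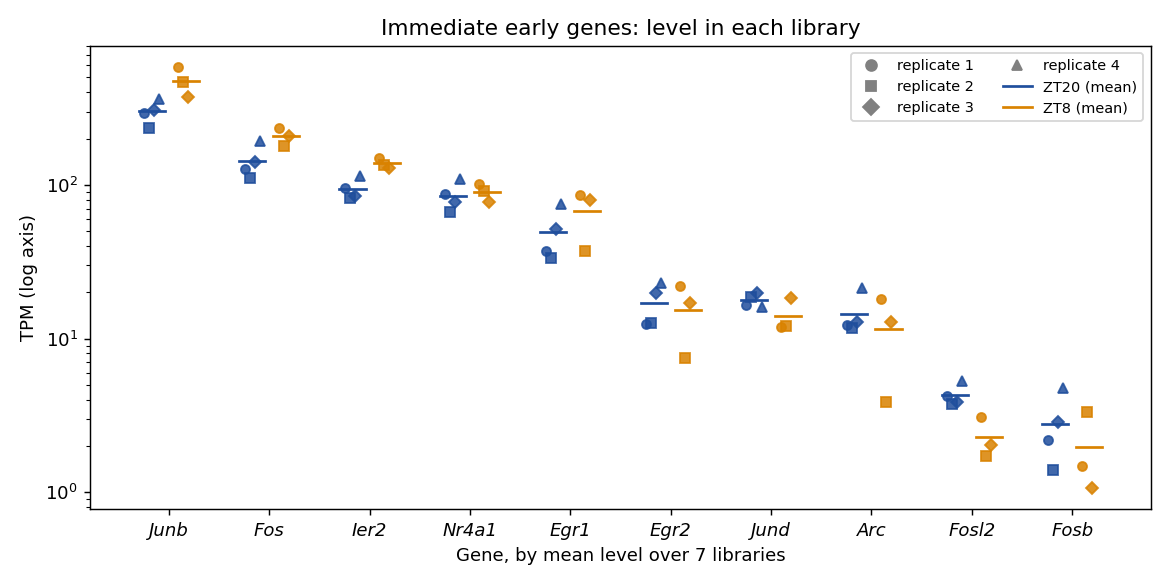
Level of each early gene in each library, in TPM on a log axis, with genes ordered by mean; blue symbols are ZT20 libraries, orange symbols ZT8 libraries, the symbol gives the replicate and the bar the group mean. The ZT20 symbols lie below all ZT8 symbols for Junb and Ier2 and above them for Fosl2, and the groups overlap for the other 7 genes.

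Between the clock times, Junb and Ier2 were lower at ZT20 and no member was called higher. Thus 2 of 10 members were called, against 16.4% of all tested genes. Both calls were in the lower direction, which held 3.61% of all tested genes. Under median-ratio scaling 3 members (Fos added) and 1160 of 14800 genes were called lower, so that share depends on the scaling. The 5 members with a mean of at least 50 TPM (Junb, Fos, Ier2, Nr4a1, Egr1) all had a negative difference and the 5 less abundant members all a positive one, a split that was noticed after the values were seen. Of the more abundant members, Nr4a1 turned positive with a marker score as covariate and without ZT20 replicate 2, and of the less abundant ones Egr2, Jund, Fosb and Arc each turned negative under at least 1 alternative. The median difference of the 10 members was 0.046 on the log2 scale, and it turned to −0.178 under median-ratio scaling, −0.11 under quantile normalization, −0.114 after length correction and −0.0961 with the replicate block. The groups did not overlap for 3 of 10 members, Junb, Ier2 and Fosl2, against 33.2% of all tested genes. In the lower direction there were 2 of them, against 8.72% of all tested genes. At an unadjusted p under 0.05 there were 4 members (those 3 and Fos), against 34.6% of all tested genes.

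Among the Fos family, Fos itself is the usual AP-1 partner of Jun proteins. The ZT20 libraries (replicates 1 to 4) had 127, 111, 140.0 and 193 TPM of Fos, and the ZT8 libraries (replicates 1 to 3) had 235, 179 and 207 TPM. The groups overlapped only through ZT20 replicate 4, which lay above ZT8 replicate 2. The log2 difference of Fos was −0.56 (standard error 0.19), a ratio of 1.47 for ZT8 over ZT20, and did not pass (limma adjusted p = 0.0800). Without ZT20 replicate 4 it was −0.71 (limma adjusted p = 0.0457), and under median-ratio scaling −0.79 (limma adjusted p = 0.0201). Fos did not pass without ZT20 replicate 1 (limma adjusted p = 0.168), without a filter (0.1725), without the intensity trend (0.121) or under quantile normalization (0.0761). Fosl2, a Fos relative with slower and longer-lasting induction, was at 4.23, 3.77, 3.88 and 5.32 TPM at ZT20 and at 3.07, 1.71 and 2.04 TPM at ZT8. Every ZT20 library was above every ZT8 library, opposite to Fos. Its log2 difference was 0.71 (standard error 0.24, limma adjusted p = 0.0750), and 0.11 after correction of each library for its trend with transcript length (limma adjusted p = 0.777). Fosl2 has the longest transcript of the 10 members in GENCODE M21 (6537 nt, against 1522 to 4484 nt for the others). Fosb, whose protein and its stable truncated form accumulate with repeated stimulation, was at 1.40 to 4.77 TPM at ZT20 and 1.06 to 3.35 TPM at ZT8, and the groups overlapped (log2 difference 0.36, 95% interval −0.50 to 1.22).

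In the Jun family, Junb had 294, 235, 309 and 363 TPM in the ZT20 libraries and 585, 469 and 372 TPM in the ZT8 libraries, in replicate order. The lowest ZT8 library lay just above the highest ZT20 library. The log2 difference was −0.65 (standard error 0.19), a 1.57-fold higher level at ZT8, with a limma adjusted p of 0.0485. Junb often acts as a weaker activator than Jun within AP-1. Its call was lost when any of 6 libraries was left out (limma adjusted p = 0.0671 to 0.117), and was kept without ZT8 replicate 3 (limma adjusted p = 0.0373). Jund, the member of the family that is expressed in resting cells, was at 16.5, 18.6, 19.7 and 16.0 TPM at ZT20 and at 11.8, 12.04 and 18.3 TPM at ZT8. ZT8 replicate 3 lay among the ZT20 libraries, and the difference of 0.33 (95% interval −0.11 to 0.78) did not pass. In GENCODE M21 Junb and Jund each overlap a gene on the opposite strand, Prdx2 and Gm11175, so some of their reads may belong to those neighbours.

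Ier2, a small nuclear protein that acts as a transcriptional regulator, had the smallest standard error of the members. It was at 95.1, 82.7, 84.8 and 115 TPM at ZT20 and at 150.4, 134 and 129.5 TPM at ZT8. All 4 ZT20 libraries were below all 3 ZT8 libraries. The log2 difference was −0.55 (standard error 0.14), a 1.47-fold higher level at ZT8, with a limma adjusted p of 0.0343. Ier2 passed without ZT20 replicate 4 or ZT8 replicate 2 (limma adjusted p = 0.0399 and 0.0412). It did not pass without any of the other 5 libraries (0.0586 to 0.107). Without ZT20 replicates 3 and 4, the libraries with Ddx3y, Eif2s3y and Uty at 0 TPM, the differences were −0.63 for Ier2, −0.83 for Junb and −0.79 for Fos. Their limma adjusted p-values were then 0.181, 0.191 and 0.166. In that fit of 5 libraries 0 of 14800 genes passed by limma, and 2425 had an unadjusted p under 0.05.

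The Egr genes encode zinc finger factors. Egr1, which is induced in neurons by activity and growth factors, was at 37.2, 33.6, 51.4 and 74.8 TPM at ZT20 and at 85.4, 37.3 and 79.3 TPM at ZT8. ZT8 replicate 2 was at the level of the lower ZT20 libraries and ZT20 replicate 4 near the higher ZT8 libraries, so the groups overlapped widely (log2 difference −0.43, 95% interval −1.22 to 0.37). Egr2, which in peripheral nerve also drives myelination by Schwann cells, was at 12.4, 12.5, 19.7 and 23.1 TPM at ZT20 and at 21.9, 7.53 and 16.9 TPM at ZT8. Its difference was 0.19 (95% interval −0.63 to 1.02) and turned negative under median-ratio scaling (−0.023) and quantile normalization (−0.076). The other 9 Schwann cell markers summed to 1130 to 1267 TPM at ZT20 and 911 to 1311 TPM at ZT8, also overlapping.

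Nr4a1, an orphan nuclear receptor, and Arc, a cytoskeletal protein of active synapses, were not called either. Nr4a1 was at 87.8, 66.2, 77.1 and 109 TPM at ZT20 and at 101, 91.7 and 78.0 TPM at ZT8, and the difference of −0.10 had a 95% interval of −0.52 to 0.31. Arc was at 12.3, 11.7, 12.8 and 21.4 TPM at ZT20 and at 17.97, 3.89 and 12.9 TPM at ZT8. The low ZT8 replicate 2 made the Arc range the widest of the members, 5.50 times from lowest to highest library, and without that library the Arc difference of 0.47 became −0.10.

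**Figure D2:**
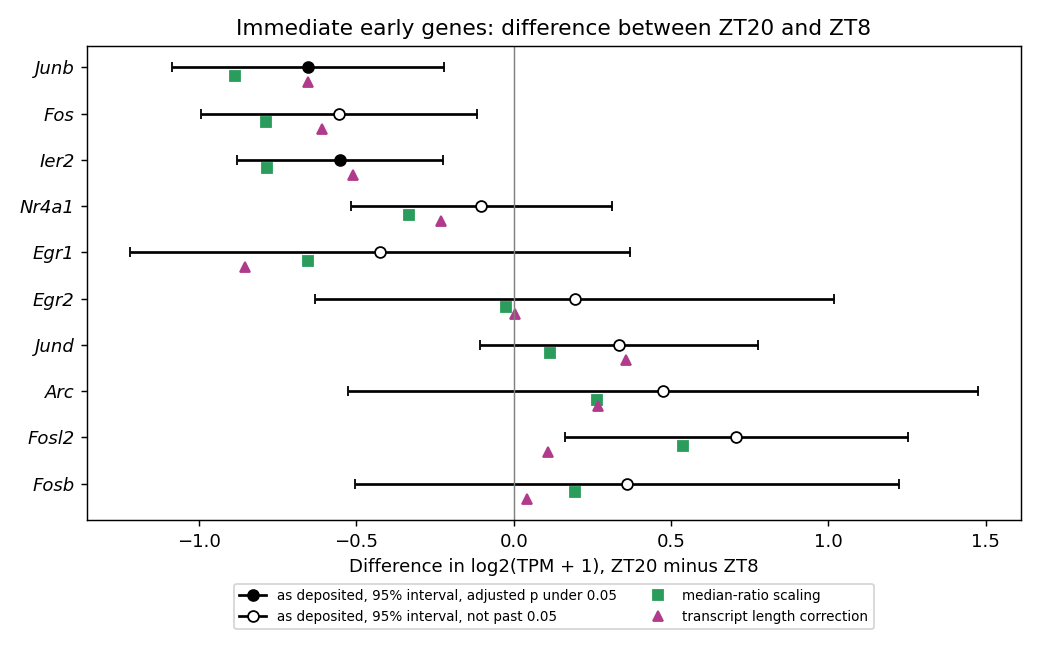
Difference in log2(TPM + 1), ZT20 minus ZT8, for each early gene, with genes ordered by mean level. Circles with bars are the values as deposited with their 95% intervals (filled where the limma adjusted p is under 0.05), squares the values under median-ratio scaling and triangles those after transcript length correction. Junb and Ier2 are filled, and the Fosl2 triangle at 0.11 lies far from its circle at 0.71.

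Markers of other cell types differed between the groups in both directions. The 10 satellite glia markers, all above 0 in every library, summed to 7606 to 9303 TPM at ZT20 and 12910 to 15630 TPM at ZT8, and 3 of 10 were called lower. Most of that sum was Apoe (6261 to 7615 TPM and 10620 to 13560 TPM), and the ranges of 6 of the 10 overlapped (Kcnj10, Glul, Cdh19, Sox10, Ednrb and Entpd2). The 8 endothelial markers summed to 102.7 to 117 TPM and 134 to 191 TPM, of which Egfl7 alone made up 97.26 to 111.9 TPM and 131.8 to 188.4 TPM. Cdh5, a defining endothelial marker, lay the other way, at 0.3758 to 0.4752 TPM at ZT20 and 0 to 0.2425 TPM at ZT8, and Emcn was at 0 in ZT8 replicate 2. The 5 plasma cell markers summed to 108 to 296 TPM and 364 to 708 TPM, with Jchain and Mzb1 lower at ZT20 in every library, Sdc1 overlapping, and Mzb1, Derl3 and Tnfrsf17 at 0 in at least 1 library. The 8 neutrophil markers all had positive differences, 4 of them called higher at ZT20, with a median of 2.18 on the log2 scale and sums of 801 to 4671 TPM and 110.2 to 1020 TPM. The sums of macrophage (168 to 238 TPM and 220.2 to 528 TPM), fibroblast, mural cell, T cell and erythrocyte markers overlapped. The marker score is the balance of neuronal markers over those of satellite glia, Schwann cells, macrophages, endothelial cells and fibroblasts. Neutrophil, plasma cell, mural cell, T cell and erythrocyte markers were not in it. With this score as covariate the differences were −0.33 for Junb, −0.40 for Ier2 and −0.44 for Fos. Their limma adjusted p-values were 0.597, 0.416 and 0.523. That fit left 75 of 14800 genes called. After length correction the differences were −0.65 for Junb, −0.51 for Ier2 and −0.61 for Fos, with limma adjusted p-values of 0.0690, 0.0621 and 0.0664. The part of these cell types in the results was not tested further. In such mixed samples fewer cells of a type and less RNA per cell cannot be told apart.

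Within ZT20 most of the early genes moved together by library. ZT20 replicate 4 was the highest ZT20 library for 9 of 10 members. The exception was Jund, which was lowest there (16.0 TPM). That library was the highest for 31.96% of all tested genes. ZT20 replicate 2 was the lowest for 8 of 10 members, and for 39.0% of all tested genes. Against the mean of the other ZT20 libraries, the median member was 0.56 higher in replicate 4 and 0.44 lower in replicate 2 on the log2 scale, while the median of all tested genes was 0.063 higher and 0.072 lower. At ZT8, replicate 1 was the highest library for 8 of 10 members and for 35.6% of all tested genes. ZT8 replicate 1 was also highest of its group for 10 of 10 macrophage and 6 of 6 T cell markers. It was highest for 2 of 10 satellite glia and 1 of 11 neuronal markers. ZT8 replicate 2 was split: 5 members, Arc, Egr2, Egr1, Fos and Fosl2, were lowest there, while Fosb was highest. It was the lowest ZT8 library for 48.8% of all tested genes, so the share of members was near that of all genes. ZT20 replicate 4 also had the highest sums of its group for satellite glia (9303 TPM), Schwann cell (1267 TPM), macrophage (238 TPM), fibroblast (122 TPM) and erythrocyte (6679 TPM) markers, being highest for 8 of 10 tested satellite glia and 5 of 6 tested fibroblast markers, and it is among the libraries with Ddx3y, Eif2s3y and Uty at 0 TPM. Their part in the pattern was not tested.

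**Figure D3:**
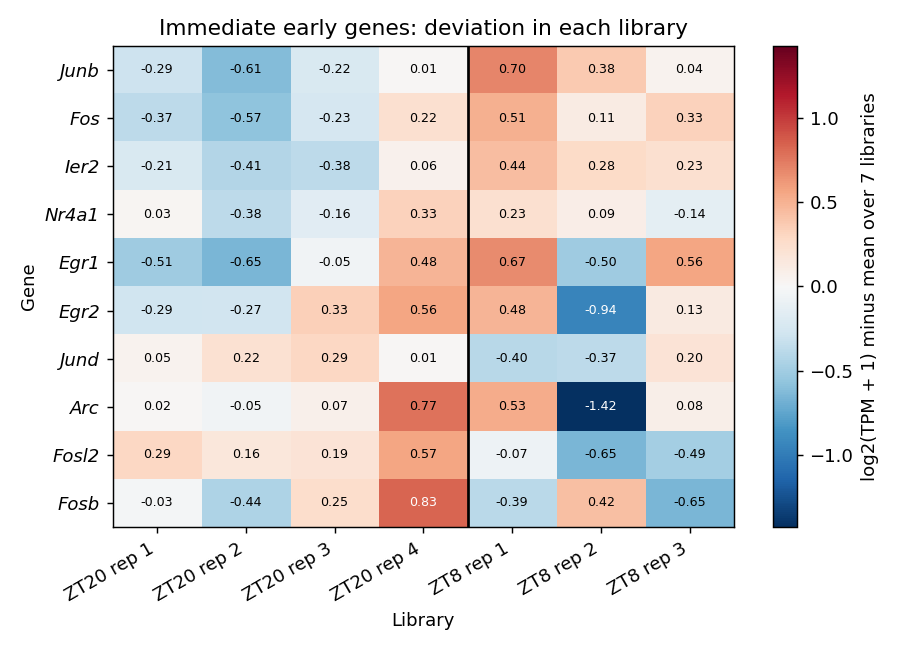
Deviation of each early gene in each library from that gene's mean over the 7 libraries, in log2(TPM + 1); red is higher, blue lower, and the black line separates ZT20 from ZT8. ZT20 replicate 4 and ZT8 replicate 1 are mostly red, ZT20 replicate 2 is mostly blue, and ZT8 replicate 2 is dark blue for Arc and Egr2.

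Some shares and ratios of TPM within the Jun and Fos families differed by clock time and others overlapped. Such shares do not depend on scaling between libraries. Of the summed Jun, Junb and Jund TPM, Junb made up 42.4%, 40.4%, 42.8% and 42.5% in the ZT20 libraries and 53.5%, 61.6% and 48.3% in the ZT8 libraries. Jun made up 54.5% to 56.4% at ZT20 and 36.8% to 49.3% at ZT8. The ZT20 libraries were nearly identical in this respect, and the groups did not overlap. Jun itself, whose rise after axon injury is well known, was at 328 to 476 TPM at ZT20 and 280.4 to 497 TPM at ZT8 (log2 difference 0.062, limma adjusted p = 0.849). Jun levels thus overlapped between the clock times, and their difference became −0.17 under median-ratio scaling and −0.16 after length correction. Fos was 29.4 to 36.2 times as abundant as Fosl2 at ZT20 and 76.6 to 104 times at ZT8. The groups overlapped in the Jund share (1.88% to 3.20% at ZT20 and 1.08% to 2.38% at ZT8). They also overlapped in Junb over Jund (12.6 to 22.7 and 20.3 to 49.5) and in Fos over Fosb (40.4 to 79.4 and 53.4 to 195). How often ratios of other gene pairs separate the groups was not tested. These ratios were chosen after the values were seen and have no test, and the transcripts compared differ in length (Jun 3189 nt and Junb 1809 nt, Fos 2108 nt and Fosl2 6537 nt).

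**Figure D4:**
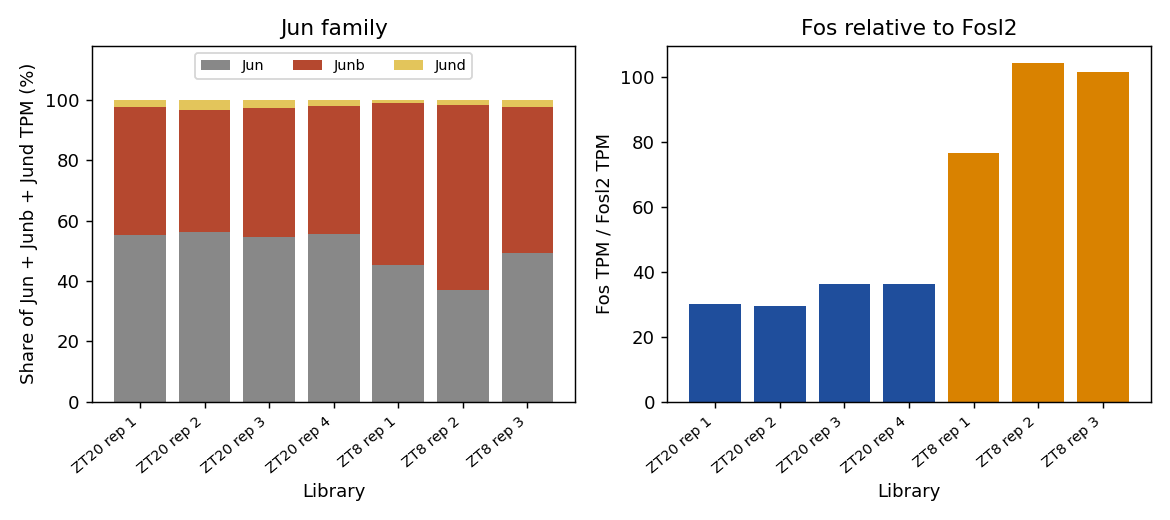
Left, share of each Jun family gene in their summed TPM (%), per library; right, Fos TPM divided by Fosl2 TPM, per library, with blue bars for ZT20 and orange bars for ZT8. Junb holds 40.4% to 42.8% in the 4 ZT20 libraries and 48.3% to 61.6% in the 3 ZT8 libraries, and the Fos to Fosl2 ratio is above 76 at ZT8 and below 37 at ZT20.

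The nearest relatives of the members did not pass the test. Fosl1, a Fos relative, was at 2.11 to 4.72 TPM at ZT20 and 1.13 to 4.51 TPM at ZT8 (log2 difference 0.38, limma adjusted p = 0.484). Egr3, a close relative of Egr1, differed by 0.13 (limma adjusted p = 0.814), with values of 0.597 to 2.20 TPM and 0.561 to 1.38 TPM. That sign turned to −0.0008 under median-ratio scaling, −0.20 under quantile normalization and −0.22 after length correction. Nr4a2, the sister receptor of Nr4a1, differed by −0.27 (limma adjusted p = 0.527) and Ier3, an early gene that modulates cell survival, by 0.43 (limma adjusted p = 0.429). Egr4, Nr4a3 and Ier5 fell under the filter, with highest values of 0.429, 0.485 and 2.11 TPM.

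A wider list of 50 other immediate early genes, of which 40 were tested, held 3 called genes (2 higher and 1 lower at ZT20) and a median log2 difference of 0.15, beside 16.4% called and 0.23 over all tested genes. The list's median turned to −0.0353 under median-ratio scaling and −0.104 after length correction. Mcl1, a short-lived survival protein of the Bcl-2 family, was at 15.6 to 20.2 TPM at ZT20 and 7.44 to 10.9 TPM at ZT8 (log2 difference 0.88, limma adjusted p = 0.0178). Myc, a growth-promoting transcription factor, was at 21.2 to 30.7 TPM and 12.8 to 17.97 TPM (0.77, limma adjusted p = 0.0275). Btg1, an antiproliferative protein that promotes mRNA deadenylation, was at 5.86 to 15.0 TPM at ZT20 and 15.5 to 41.0 TPM at ZT8 (−1.41, limma adjusted p = 0.0366). After length correction Myc and Btg1 passed (limma adjusted p = 0.0399 and 0.0329) and Mcl1 did not (0.0600). Myc did not pass under median-ratio scaling (limma adjusted p = 0.0525), and under quantile normalization neither Myc (0.0750) nor Mcl1 (0.0652) passed. With the replicate block Myc (0.0573) and Mcl1 (0.0790) did not pass either, and without a filter Myc (0.0581) and Btg1 (0.0968) did not. Without ZT20 replicate 3 or 4 none of the 3 genes passed (limma adjusted p = 0.0611 to 0.104), Myc and Btg1 did not pass without ZT20 replicate 1 or ZT8 replicate 3 (0.0607 to 0.0922), and Btg1 did not without ZT8 replicate 2 (0.0678). In this list ZT20 replicate 4 was the highest ZT20 library for 21 of 40 genes (52.5%), beside 9 of 10 members.

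Several regulators that act upstream of early genes were higher at ZT20. Of 29 listed kinases, CREB and serum response factor genes and cofactors, 28 were tested, and 10 were called higher and 1 lower, with a median difference of 0.56, where 12.8% of all tested genes were called higher. The 5 called with the largest difference were Crtc2, a CREB coactivator (1.42, limma adjusted p = 0.0270), Rps6ka3, a ribosomal S6 kinase downstream of ERK (1.342, 0.00881), Mef2d, an activity-dependent transcription factor (1.27, 0.0120), Mrtfb, a cofactor of serum response factor (1.24, 0.0158), and Crebbp, a histone acetyltransferase that binds CREB (1.19, 0.0158). These transcripts are 2992 to 10820 nt long, and the median of all tested genes is 3108 nt. After length correction 2 genes of the list were called higher and 2 lower, beside 487 and 720 of 14745 tested genes. The list's median difference was then 0.337, with 20 of 28 genes positive, beside a median of −0.0027 over all tested genes. Of the 5 named, Crtc2 passed there (1.22, limma adjusted p = 0.0391). Crtc2 did not pass without a filter (0.0748), with the replicate block (0.0716), or without any 1 of the 4 ZT20 libraries or ZT8 replicate 3 (0.0502 to 0.0886). Without ZT20 replicate 3, Mef2d (0.0532), Mrtfb (0.0539) and Crebbp (0.0580) did not pass, nor did Crebbp without ZT20 replicate 4 (0.0575). Mrtfb (0.0521) and Crebbp (0.0623) did not pass under quantile normalization, nor Mef2d with the replicate block (0.0505).

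Of 14 AP-1 partners and repressors, 13 were tested, and 5 were called higher and 2 lower at ZT20, beside 12.8% and 3.61% of all tested genes. After length correction 0 were called higher by limma and 1 lower, beside 487 and 720 of 14745 tested genes. At an unadjusted p under 0.05 there were then 5 of 13, beside 3918 of 14745. Nab2, a corepressor that binds Egr proteins and is itself an Egr target, was at 2.79 to 3.91 TPM at ZT20 and 5.99 to 8.46 TPM at ZT8 (−0.96, limma adjusted p = 0.0210). The groups did not overlap, and Nab2 passed after length correction (−1.10, limma adjusted p = 0.0272). It did not pass without a filter (0.0550), with the replicate block (0.105), or without ZT20 replicate 1, 3 or 4 (0.0570 to 0.0710). Those that rose included Maf, a bZIP factor (1.29, limma adjusted p = 0.0249), Ncor1, a nuclear receptor corepressor (0.91, 0.00673), and Mafg, a small Maf protein (0.87, 0.00495). None of these 3 passed after length correction, where their limma adjusted p-values were 0.0651 to 0.242. Maf also did not pass without a filter (0.0700), under quantile normalization (0.0610), with the replicate block (0.0679), or without ZT20 replicate 1, 3 or 4 (0.0670 to 0.0822).

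Heat shock genes encode chaperones that respond to protein damage. Of 14 listed, 13 were tested, 2 were called higher and 1 lower, beside 16.4% of all tested genes called in either direction, and the median was 0.076. Under median-ratio scaling and after length correction 0 were called higher by limma and 1 lower, with 5 of 13 at an unadjusted p under 0.05 in each, beside 4880 of 14800 and 3918 of 14745 tested genes. Hspa1a, an inducible Hsp70, had 35.5, 29.2, 35.4 and 45.9 TPM in the ZT20 libraries and 71.0, 63.4 and 81.2 TPM in the ZT8 libraries. Every ZT20 library was below every ZT8 library, as for Junb and Ier2, and ZT20 replicate 4 was again the highest of its group. The log2 difference was −0.97 (standard error 0.17, limma adjusted p = 0.0108), and −1.16 after length correction (limma adjusted p = 0.00953). Hspa1a shares nearly all its sequence with Hspa1b, which had at most 1.05 TPM, so how reads were split between them is uncertain. Hsph1, an Hsp110 chaperone (0.61, limma adjusted p = 0.0196), and Bag3, a cochaperone of Hsp70 (0.80, limma adjusted p = 0.0486), were higher at ZT20. Neither passed under median-ratio scaling (limma adjusted p = 0.0633 and 0.0855). Without ZT20 replicate 3 or 4, Hsph1 had limma adjusted p-values of 0.0654 and 0.0661. Without any 1 of the 4 ZT20 libraries or ZT8 replicate 3, Bag3 had 0.0597 to 0.133. Bag3 also did not pass with a pseudocount of 0.1 (0.0540), without a filter (0.121), without the intensity trend (0.0756) or after length correction (0.0557). With the replicate block neither Bag3 (0.0503) nor Hsph1 (0.0706) passed, and Hsph1 did not pass after length correction (0.420). Of 9 factors that control the decay of short-lived mRNAs, 1 was called, beside 16.4% of all tested genes. This was Khsrp, a protein that binds AU-rich elements (1.42 higher at ZT20 on the log2 scale, limma adjusted p = 0.0195). It did not pass without a filter (0.0668), with the replicate block (0.0635), or without ZT20 replicate 3 or 4 (0.0702 and 0.0673). With the marker score covariate, and likewise without ZT20 replicates 3 and 4, 0 genes were called by limma in any of these 5 lists. The median differences in these 2 fits were 0.553 and 0.53 for the upstream regulators and 0.709 and 0.158 for the AP-1 partners and repressors, beside 0.564 and 0.363 in the fit of all 7 libraries without the covariate. At an unadjusted p under 0.05 the covariate fit had 3 of 40 other early genes, 10 of 28 upstream regulators, 6 of 13 AP-1 partners and repressors, 2 of 13 heat shock genes and 2 of 9 turnover factors, beside 2490 of 14800 tested genes. The fit of 5 libraries had 5, 10, 6, 2 and 1 in the same order, beside 2425 of 14800.

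**Figure D5:**
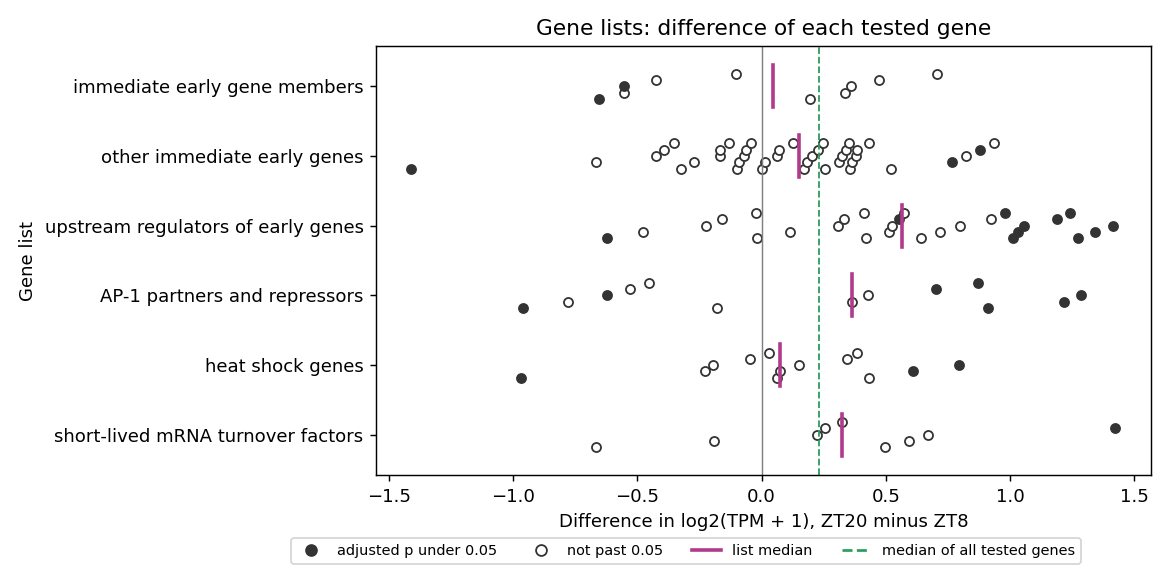
Difference in log2(TPM + 1), ZT20 minus ZT8, of each tested gene in the 10 members and 5 related lists; filled circles passed an adjusted p of 0.05, purple bars are list medians and the dashed line the median of all tested genes. Medians of the members, the other early genes and the heat shock genes lie left of the dashed line at 0.23. Those of the upstream regulators (0.56), AP-1 partners and repressors (0.36) and turnover factors (0.32) lie right of it.

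The genes whose pattern over the 7 libraries was nearest to a member were picked by the root mean square difference of log2(TPM + 1) values, each centred on its own mean. For Fos they were Dhh, the ligand Desert hedgehog that Schwann cells secrete (0.0819), Slc31a2, a copper transporter (0.108), and Prss35 (0.115), where the spread of Fos itself was 0.397 (SD over 7 libraries). Dhh was at 23.4 to 37.4 TPM at ZT20 and 34.4 to 48.1 TPM at ZT8, and its likeness to Fos follows from how it was picked. For Egr1 they were Otud7b, a deubiquitinase (0.163), Pdlim4 (0.193) and I730030J21Rik (0.196). For Nr4a1 they were the pseudogene Gpx4-ps2 (0.0603), whose reads may come from related copies, Tab1, an activator of the kinase TAK1 (0.0971), and Ppp1r15a, a stress-induced phosphatase subunit (0.0979). Among the members the most alike pair was Fos and Ier2 (0.140), then Junb and Ier2 (0.161) and Fos and Junb (0.184), and the least alike was Fosb and Arc (0.843).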

How the data were processed

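The authors deposited 1 table of TPM with 7 library columns, each mapped to its sample by name, and it held no further per-sample values. Per the submitters' processing notes, FastQC 0.11.9, Trim Galore 0.6.6, Salmon 1.6.0, DESeq2 1.34.0 and the build GRCm39 were used, with no roles given. The annotation release and the summing to genes are not given in the sources used here. TPM columns share the same total, so sequencing depth and counting error are unknown.

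Values were analysed as log2(TPM + 1), which understates fold changes of low genes. Genes averaging 1 TPM or more were fitted with limma 3.58.1 (intensity trend, two-sided, Benjamini-Hochberg over 14800 genes, called under 0.05; R 4.3.3, data.table version 1.17.8) over all 7 libraries without covariates, as ZT20 minus ZT8. On simulated data for 14800 genes with 200 changed by 1.5 on the log2 scale, 64.0% of changed genes were recovered; unchanged genes made up 3.76% of calls, and 0 calls were made when nothing was changed. Transcript lengths (the longest per gene) and overlaps came from GENCODE M21 and covered 99.6% of tested genes. Length correction removed each library's loess trend with log2 length (span 0.3). Promoters came from RefSeq (GRCm38.p6), another build than the table's, so no coordinates of the table's genes are given.

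The members and gene lists were chosen with earlier results of these data known. The text names all 10 members, their paralogs, up to 5 called genes with the largest difference in each list, and the 3 genes most like Fos, Egr1 and Nr4a1. A result on 1 gene that this rule selects is not reported here. Alternatives were median-ratio scaling, quantile normalization, a pseudocount of 0.1, a stricter filter (mean of 5 TPM), no filter, no trend, array weights, a threshold of 0.10, a marker score covariate, length correction, the replicate block and left-out libraries. Tables and figures used Python 3.11.15, pandas 2.3.3 and matplotlib 3.10.9.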

Additional observations from a re-analysis of the deposited data

Results flagged for a closer look

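Arc reached 21.4 TPM in ZT20 replicate 4, while the 3 remaining ZT20 libraries held 11.7 to 12.8 TPM, so the gap to the nearest took a share of 0.881 of the group's range, above the 95% critical share of 0.829 for 4 samples. Of 41 named genes, 1 met this rule in the ZT20 group, and chance gives about 2.05; the ZT8 group of 3 was too small to be examined this way. ZT20 replicate 4 was also the highest ZT20 library for 8 other members. Without it the Arc difference was 0.29 on the log2 scale.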

How the results depend on the processing

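Of the 2 called members, Junb and Ier2, Ier2 alone passed with a pseudocount of 0.1 and under quantile normalization (1 member each), and 0 passed without a filter, with the marker score covariate, after length correction and without ZT20 replicates 3 and 4. Without the intensity trend 1 passed, Fosl2, higher at ZT20. At a threshold of 0.10 there were 4 (Fos and Fosl2 added). Leaving out each library in turn gave 0 to 2 members. Median-ratio scaling gave 3. Of the other immediate early genes, 1 passed without a filter, 0 with the marker score, 1 with the replicate block, 0 without ZT20 replicates 3 and 4, 5 at the threshold of 0.10 and 0 to 5 with a library left out. Of all genes, 1178 passed without a filter, 3899 with array weights, 4079 at the threshold of 0.10, 75 with the marker score, 1207 after length correction (487 higher), 1174 with the replicate block, 0 without ZT20 replicates 3 and 4 (2425 at an unadjusted p under 0.05) and 624 to 3055 with a library left out. The split of higher against lower calls, 1899 to 534 as reported, was 1128 to 1160 under median-ratio scaling and 1023 to 814 under quantile normalization.

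The direction of Fos, Junb, Ier2, Egr1, Jund or Fosl2 turned under none of these alternatives except Jund with the marker score (−0.040). Egr2 turned under median-ratio scaling (−0.023), quantile normalization (−0.076), array weights (−0.011) and without ZT20 replicates 3 and 4 (−0.17), where Fosb turned too (−0.025). Nr4a1 turned with the marker score (0.13), as did Ier3 (−0.34), Gpx4-ps2 (0.030), Tab1 (0.12) and Ppp1r15a (0.098). Jun turned under median-ratio scaling (−0.17), array weights (−0.084), length correction (−0.16), the replicate block (−0.032) and without ZT20 replicates 3 and 4 (−0.082). Egr3 turned under median-ratio scaling (−0.0008), quantile normalization (−0.20), length correction (−0.22), the replicate block (−0.071) and without ZT20 replicates 3 and 4 (−0.27). With each library left out, the ranges that crossed 0 were −0.23 to 0.0082 for Nr4a1, −0.22 to 0.49 for Egr2, −0.10 to 0.88 for Arc, −0.15 to 0.26 for Jun, −0.071 to 0.28 for Egr3, −0.041 to 0.71 for Ier3, −0.50 to 0.14 for Otud7b, −0.17 to 0.080 for Tab1 and −0.15 to 0.068 for Ppp1r15a. For these changes the cause was not tested.

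The labels do not say that a replicate number marks shared animals or days, and same-numbered libraries correlated at −0.014, 0.153 and 0.083 in their deviations from the group means, and not every library correlated best with its own number. With the replicate number as a block Fos (−0.71, limma adjusted p = 0.0316) and Ier2 passed and Junb did not (0.0540); the block leaves ZT20 replicate 4 without a partner. All fits used the same TPM table, whose depth is unknown; a mean of at least 5 TPM leaves Fosb and Fosl2 untested.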
